A study of Homo sapiens with 13 samples.

Results

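The library held 998 windows of 200 bp named as bone peaks, of 9769 elements with entries in SW1353 cells. They were taken by name: every element whose name marks it as a bone control and not as a scrambled bone control. Each name gives a peak number and a window in the hg19 genome, the build named in the submitters' processing notes. The assay or cells behind the bone peak list are not given in the sources used here. 994 of the 998 windows had at least 10 barcodes in the DNA of all 3 replicates and were tested. That filter reads the DNA alone, so a window could not pass it through high RNA. The remaining 4 windows, Peak 978 and Peak 947 on chromosome 3, Peak 1252 on chromosome 20 and Peak 93 on chromosome 12, had too few barcodes.

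The study placed its elements in a lentiviral massively parallel reporter assay (lentiMPRA) built around risk variants of adolescent idiopathic scoliosis, a curvature of the spine. SW1353, a human chondrosarcoma line that the labels list as a chondrocyte, was infected with the library and collected after 48 hours, with DNA and RNA isolated together. There were 3 DNA and 3 RNA libraries and no other treatment. A second human chondrocyte line, TC28a2, was infected and collected in the same way and is used here only for cartilage windows that overlap a bone peak. A cancer-derived cartilage line is a model of a cell related to bone, but it is not a bone cell. The counts are of barcodes alone, so marker genes of the line could not be examined.

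In lentiMPRA, a candidate sequence is integrated with a reporter gene and a random barcode, and the barcode's RNA over its DNA measures how much transcription the sequence drives outside its own chromosomal place. Open chromatin peaks are stretches of accessible DNA, and they include gene promoters, enhancers and sites bound by insulator proteins. Accessibility in a tissue does not by itself say that a fragment can drive a reporter in another cell. Promoters of widely expressed genes are often rich in CG dinucleotides and often hold sites for SP, ETS, NRF1, YY1 and CCAAT-box factors.

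The promoters of the genes at the 5 strongest bone peaks are shown for the sequence they hold. The bases are the 250 before each start in RefSeq, build GRCh38.p14, read 5′ to 3′ on the gene's strand: ZFAS1 at chr20:49278392-49278641 (+), CFL1 at chr11:65858181-65858430 (-), MALAT1 at chr11:65497488-65497737 (+), YWHAB at chr20:44885455-44885704 (+) and DYNC2I2 at chr9:128656848-128657097 (-). All 5 genes were matched by symbol, MALAT1 to the first of its 2 entries. Capitals mark matches, on either strand, to any of the motifs searched. The peak windows have hg19 coordinates, the tested bases were not read, and how much of each window these bases cover was not determined. The window named for CFL1 was placed between CFL1 and MUS81, so the CFL1 bases shown may lie outside it.
ZFAS1: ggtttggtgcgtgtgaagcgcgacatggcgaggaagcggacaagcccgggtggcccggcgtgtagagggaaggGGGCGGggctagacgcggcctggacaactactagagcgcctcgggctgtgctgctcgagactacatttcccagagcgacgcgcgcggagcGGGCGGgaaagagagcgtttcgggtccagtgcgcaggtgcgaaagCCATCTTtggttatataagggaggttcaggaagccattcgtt
CFL1: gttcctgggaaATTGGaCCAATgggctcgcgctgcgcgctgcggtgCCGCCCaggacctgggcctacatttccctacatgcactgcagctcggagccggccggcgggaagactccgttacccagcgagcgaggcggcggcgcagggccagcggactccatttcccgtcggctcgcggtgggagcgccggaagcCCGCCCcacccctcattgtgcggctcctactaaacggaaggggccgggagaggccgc
MALAT1: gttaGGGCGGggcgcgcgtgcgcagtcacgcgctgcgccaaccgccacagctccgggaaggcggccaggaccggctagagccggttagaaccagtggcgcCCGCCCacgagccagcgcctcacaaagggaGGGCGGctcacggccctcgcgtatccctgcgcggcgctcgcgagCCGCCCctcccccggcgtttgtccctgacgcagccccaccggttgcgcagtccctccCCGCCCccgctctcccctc
YWHAB: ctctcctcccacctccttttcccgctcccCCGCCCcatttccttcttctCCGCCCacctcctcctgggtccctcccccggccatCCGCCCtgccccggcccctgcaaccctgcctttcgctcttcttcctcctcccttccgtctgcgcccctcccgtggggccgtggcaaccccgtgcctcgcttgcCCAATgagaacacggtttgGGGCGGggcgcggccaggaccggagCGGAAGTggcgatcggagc
DYNC2I2: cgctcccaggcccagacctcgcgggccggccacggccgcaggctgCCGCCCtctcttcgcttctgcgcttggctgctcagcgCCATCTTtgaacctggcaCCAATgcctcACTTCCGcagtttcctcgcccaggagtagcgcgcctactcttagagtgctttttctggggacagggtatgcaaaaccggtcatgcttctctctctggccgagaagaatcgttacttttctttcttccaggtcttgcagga

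The motifs searched, with the share of 35116 RefSeq promoters of the same length that hold each, were SP (GGGCGG, 42.6%), the CCAAT box (CCAAT, 32.0%), RUNX (TGTGGT, 10.98%), the TATA box (TATAAA, 10.7%), AP-1 (TGANTCA, 6.57%), ETS (CGGAAGT, 5.69%), NRF1 (GCGCATG, 3.77%), YY1 (AAGATGG, 3.70%) and CRE (TGACGTC, 3.12%). None of the motif matches in these 5 promoters overlapped one another. The MALAT1 promoter held 5 SP matches. The YWHAB promoter held 4 SP matches, 1 CCAAT box and 1 ETS match. The CFL1 promoter held 2 SP matches and 2 CCAAT boxes, the ZFAS1 promoter 2 SP matches and 1 YY1 match, and the DYNC2I2 promoter 1 match each to SP, YY1, the CCAAT box and ETS. Their G and C content ran from 59.6% in DYNC2I2 to 75.2% in MALAT1, beside a median of 58% over all promoters. They held 17 to 34 CG dinucleotides, beside a median of 11. A match is a description of the letters, not a bound site. RBM39 and ACTB, also among the 10 strongest, are named only.

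The 6 libraries were close in depth, with 15582658 to 15626361 counts in the DNA and 37571404 to 37631975 in the RNA. Bone peaks took 13.4% of the DNA counts and 16.2% to 16.4% of the RNA counts. Activity is given as the log2 of RNA over DNA, fitted by edgeR and set so that the median of 191 scrambled variant-site controls is 0. A window was called above or below that level at an edgeR adjusted p under 0.05, with Benjamini-Hochberg adjustment over all 9681 elements tested. The labels do not say that the replicates came from separate cultures, so p-values measure the spread between these samples, which may be technical. The deposited tables stop at barcode position 500, and 472 of the 994 bone peaks reached that position in at least 1 library, so their sums lack some barcodes. They are called windows at the limit here, and the other 522 windows are under it.

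Most bone peaks drove more reporter RNA than the scrambled level, the median scrambled variant site. 667 of the 994 tested (67.1%) were called above it and 16 below, where all elements tested had 48.8% called above and 1.82% below. Of the 96 scrambled versions of bone peaks, 59 (61.5%) were also called above that level and 7 (7.29%) below. Of the 191 controls themselves, 24 (12.6%) were called above and 25 (13.1%) below. A call is made against their median as a fixed level and does not take in their spread. The median bone peak had a log2 activity of 0.73 (quartiles 0.29 and 1.25), beside 0.45 over all elements. 348 bone peaks (35.0%) were over 2-fold above the scrambled level, 93 were over 4-fold and 10 over 8-fold. Of all 9681 elements tested, 1809 (18.7%) were over 2-fold, 387 over 4-fold and 35 over 8-fold. Muscle peaks were close to bone peaks, with 334 of 993 (33.6%), 82 and 10 at these levels. Cartilage peaks had more, with 598 of 991 (60.3%), 174 and 14. The 93 windows over 4-fold gave 29.0% of the RNA counts of bone peaks from 11.3% of their DNA counts. In 666 of the 667 windows called above, all 3 replicates lay above the scrambled median, and all 16 windows called below lay under it in all 3. Set against the median of all elements instead of the scrambled controls, 431 bone peaks were called above (43.4%, beside 23.9% of all elements) and 101 below (10.2%, beside 10.9% of all elements).

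The level of a window went with whether it reached the barcode limit. Bone peaks under the limit had a median of 0.40, with 238 of 522 called above (45.6%) and 15 below. Bone peaks at the limit had a median of 1.08, with 429 of 472 called above (90.9%) and 1 below, close to all elements at the limit, of which 88.5% were called above with a median of 0.97. The scrambled variant-site controls moved the same way, from a median of -0.05 in the 167 under the limit to 0.43 in the 24 at it. Of those 24, 14 (58.3%) were called above. Over all elements under the limit, 33.8% were called above, with a median of 0.33. The 301 bone peaks at the limit in both DNA and RNA were all called above (median 1.34), while the 165 at the limit in DNA alone had a median of 0.62. Whether a window reaches the limit in RNA is read from its RNA barcodes, so this split is not independent of its activity. Within the windows under the limit, the median was 0.32 in 65 windows with fewer than 100 DNA barcodes, 0.31 in 173 with 100 to under 200, 0.42 in 184 with 200 to under 300, and 0.64 in 100 with 300 or more. The part of barcode number in the level of a window was not tested.

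**Figure D1:**
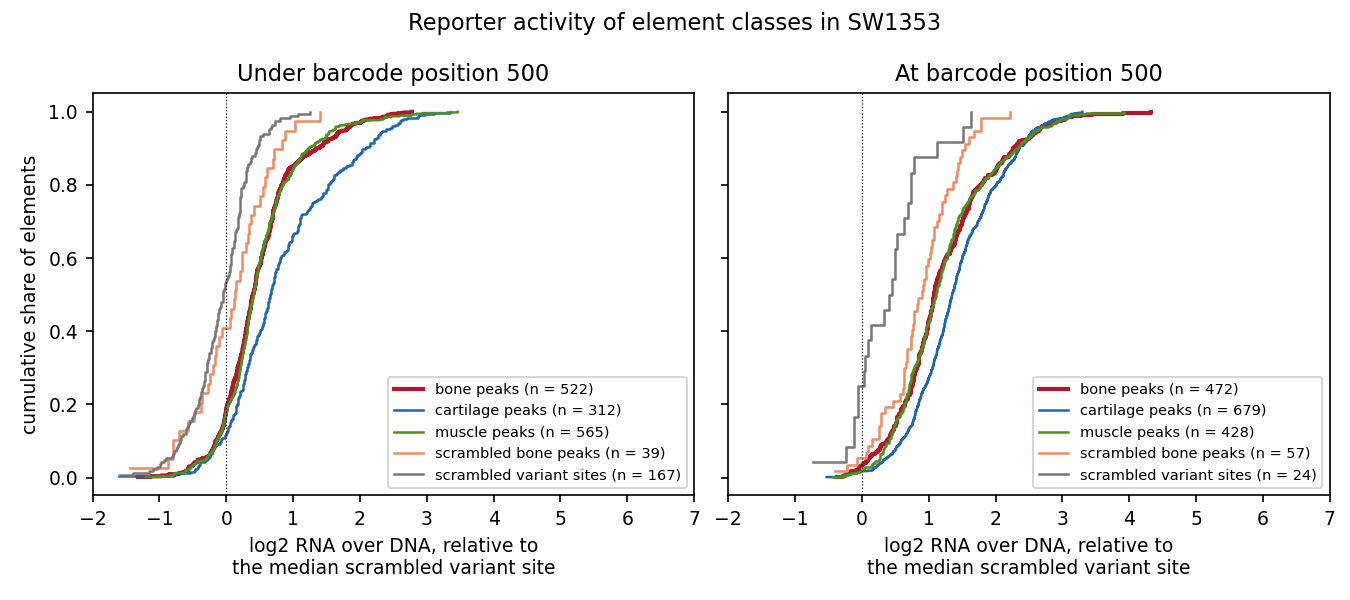
Cumulative share of elements (vertical axis) by log2 activity, the RNA over DNA with the median scrambled variant site at 0 (horizontal axis), for 5 classes of element, under barcode position 500 (left) and at it (right). Bone and muscle peaks run together, cartilage peaks lie to their right, and scrambled elements lie to their left in both panels, with bone medians of 0.40 on the left and 1.08 on the right.

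Bone peaks stood below cartilage peaks and close to muscle peaks. The bone median lay below the cartilage median by 0.47, 0.45 and 0.46 in the 3 replicates. Under the limit, the gap was 0.27, 0.27 and 0.23. The bone median differed from the muscle median by 0.05 ± 0.02 (SD, n = 3) over all windows and by -0.00 ± 0.06 (SD, n = 3) under the limit, where the replicates did not take 1 sign. Over scrambled variant sites, the bone median was higher by 0.79 ± 0.06 (SD, n = 3), and by 0.50 ± 0.07 (SD, n = 3) under the limit. Over scrambled bone windows, it was higher by only 0.12 ± 0.04 (SD, n = 3), and by 0.34 ± 0.05 (SD, n = 3) under the limit. The bone median was above that of the study's own reference alleles at variant sites by 0.38 ± 0.02 (SD, n = 3), and by 0.10 ± 0.01 (SD, n = 3) under the limit. With 3 replicates, the exact two-sided sign-flip test cannot go below p = 0.25, which is the p of each of these differences except bone against muscle under the limit (exact p = 1).

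Bone peaks were spread over 23 chromosomes, and the medians ran from 0.42 on chromosome 13 (16 windows) to 0.98 on chromosome 5 (48 windows). On chromosome 14, 17 of 37 windows were called above, and on chromosome 8, 21 of 26. Peak numbers ran from 2 to 1331, and the number carried no visible order of activity (Pearson r = -0.01, Spearman rho = -0.01 over 994 windows). The fifth of the windows with the lowest numbers had a median of 0.80 and the fifth with the highest numbers 0.70. Activity in a pair of replicates correlated with r = 0.87, 0.87 and 0.86 over the 994 windows, which share libraries and barcodes across all pairs.

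The genes beside windows were named from memory of where genes lie in hg19, without an annotation of that build, and windows not named had no gene placed with certainty. Coordinates are those in the element names. The 10 strongest windows were all placed at or near the start of a gene or between neighbouring genes. All 10 were at the barcode limit. The share of all bone peaks at gene starts or inside genes was not determined.

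The strongest was Peak 1146 at chr20:47895006-47895206, near the start of ZFAS1, a long noncoding RNA that hosts small nucleolar RNAs. Its log2 activity was 4.58, 4.37 and 4.20 in the 3 replicates (fitted 4.33, SE 0.074, 20.1-fold, edgeR adjusted p = 5.91e-10). It gave 202460 RNA counts from 8051 DNA counts. All 3 of its replicates stood above every replicate of the other bone peaks.

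Peak 546 at chr11:65626889-65627089 lies between CFL1, which encodes the actin-severing protein cofilin, and MUS81, which encodes a DNA repair nuclease. It reached 4.11, 3.96 and 3.97 (fitted 3.96, SE 0.062, 15.6-fold, edgeR adjusted p = 5.91e-10). Peak 23 at chr11:65264974-65265174, just before the start of the abundant nuclear noncoding RNA MALAT1, reached 3.88, 4.06 and 3.92 (fitted 3.90, SE 0.076, 14.9-fold, edgeR adjusted p = 1.17e-09). The replicates of these 2 windows overlapped each other.

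Peak 1122 at chr20:43514186-43514386, at the start of the 14-3-3 gene YWHAB, varied most of the 10, with 3.38, 3.92 and 3.17 (SD 0.38). Peak 97 at chr9:131418914-131419114 lies at the start of DYNC2I2, which encodes a dynein chain of cilia, and had a fitted activity of 3.28 (SE 0.081). Peak 73 at chr7:5569453-5569653, near the start of beta-actin (ACTB), had 3.22, 3.54 and 3.13. These windows overlapped in their replicates and cannot be ranked among themselves. The last 4 of the 10 were the windows at HADHA and HADHB, the subunits of the mitochondrial trifunctional enzyme (3.14), at ZNF335 (3.07), at SBNO1 (3.05) and at RBM39, a splicing factor gene (3.04), with SEs of 0.0745 to 0.0821.

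Among windows under the limit, the strongest was Peak 1158 at chr2:242255152-242255352, between the starts of HDLBP, which encodes an RNA-binding protein, and SEPTIN2. It had 2.49, 2.57 and 3.45 (fitted 2.78, SE 0.218, 6.86-fold, edgeR adjusted p = 2.53e-06), with replicate 3 well above the other 2. Peak 191 at chr7:139044444-139044644 had 2.05, 3.15 and 2.90 (fitted 2.65, SE 0.228). Both rested on about 100 DNA barcodes a replicate, 90 and 101.

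Peak 726 at chr22:29195279-29195479, inside XBP1, a transcription factor gene of the response to unfolded proteins, had 2.49, 2.89 and 2.48 (fitted 2.57, SE 0.108, edgeR adjusted p = 2.89e-08). Its 308 DNA barcodes a replicate make it the most deeply sampled of the 3 strongest windows under the limit. Peak 4 at chr11:65479753-65479953, near the start of the acetyltransferase gene KAT5, had 2.42, 2.43 and 2.32 from 308 barcodes (fitted 2.34, SE 0.080). The windows of ATXN2L (2.48), MARCHF7 (2.42), DRAP1 with C11orf68 (2.42), MRTO4 with EMC1 (2.40) and UNC50 with COA5 (2.22) made up the rest of the 10 together with 1 thinly sampled window. That window, Peak 1302 at chr7:99006080-99006280, was at 2.34 and rested on 294 DNA counts, and its SE was 0.301.

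**Figure D2:**
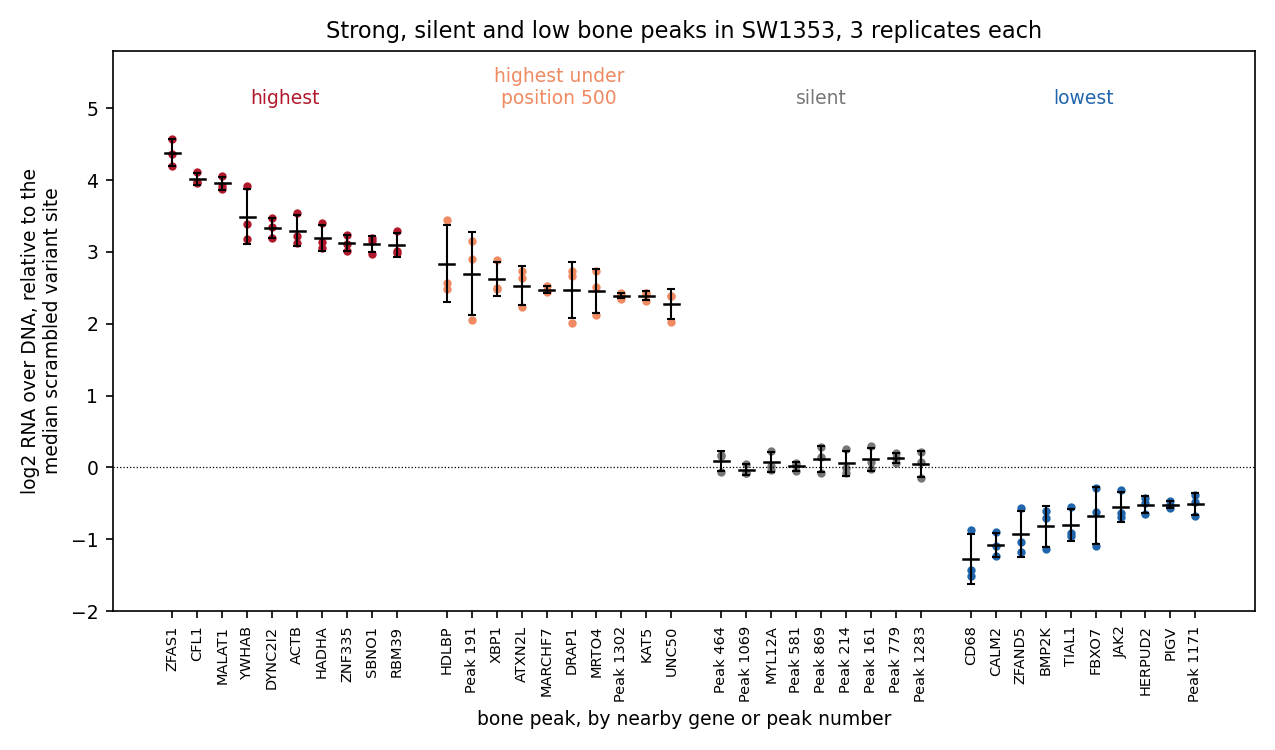
Log2 activity, the RNA over DNA with the median scrambled variant site at 0 (vertical axis) for 39 bone peaks, named by a nearby gene or by peak number; points are the 3 replicates, the wide bar their mean and the error bar their SD. The 10 strongest windows sit between 2.98 and 4.58, the 9 silent ones plotted within 0.29 of 0, and the replicates of the lowest run from -1.51 to -0.29.

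The fixed lists of bone, cartilage and muscle genes gave no member that could be placed at a bone peak with certainty. 8 windows were placed at genes of a list of widely expressed genes, and all 8 were called above, as were 67.1% of bone peaks and 48.8% of all elements. The list was chosen with earlier results known, and 4 of the 8 windows are among the 10 strongest, so nothing is read from the count. Besides ZFAS1, CFL1, MALAT1 and ACTB, these were TUBA1B, an alpha-tubulin gene (2.79, 2.66 and 2.69), and 3 windows of much lower activity. The window just before the start of EEF1A1, the translation elongation factor gene, had 0.68, 0.77 and 0.45 (fitted 0.58, SE 0.105). The window inside NEAT1, a noncoding RNA of nuclear paraspeckles, had 0.91, 0.65 and 0.56 (fitted 0.65, SE 0.194, edgeR adjusted p = 0.0182). The window at the start of HNRNPK, an RNA-binding protein gene, had 0.30, 0.58 and 0.90 (fitted 0.54, SE 0.155, edgeR adjusted p = 0.0159). The last 2 of these calls each depended on 1 replicate: the adjusted p of NEAT1 was 0.111 without replicate 1, and that of HNRNPK 0.0948 without replicate 3. Against the median of all elements, these 3 windows (0.12, 0.20 and 0.08) were not called.

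The lowest bone peaks drove less reporter RNA than the median scrambled variant-site control. They lay within the range of the controls, whose lowest was at -1.59 and whose 5th percentile was at -0.81. Of the 191 controls, 25 (13.1%) were themselves called below, beside 16 of the 994 bone peaks (1.61%). The lowest was Peak 337 at chr17:7483995-7484195, inside CD68, which encodes a lysosomal glycoprotein of macrophages and osteoclasts. It had -1.43, -0.87 and -1.51 (fitted -1.32, SE 0.164, edgeR adjusted p = 6.92e-05), or 0.4 times the scrambled level, with 7610 DNA and 3918 RNA counts. Peak 107 at chr2:47402210-47402410, inside the calmodulin gene CALM2, had -1.24, -1.09 and -0.90 (fitted -1.13, SE 0.193, edgeR adjusted p = 0.000691). They had 365 and 147 DNA barcodes a replicate, and all of their replicates were below 0.

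Peak 420 at chr9:74978630-74978830, inside ZFAND5, had -1.17, -0.56 and -1.03 (fitted -0.97, SE 0.218). Peak 1052 at chr4:79699079-79699279, inside BMP2K, a kinase gene induced by bone morphogenetic protein 2, had -0.71, -0.60 and -1.14 (fitted -0.87, SE 0.228). The call of BMP2K was lost without replicate 3 (-0.70, edgeR adjusted p = 0.0696). The windows inside TIAL1, an RNA-binding protein gene (-0.86), FBXO7, an F-box gene (-0.72), the kinase gene JAK2 (-0.60), HERPUD2 (-0.57) and PIGV, a gene of GPI anchor synthesis (-0.57), and Peak 1171 on chromosome 16 (-0.56) completed the 10. All 10 were under the barcode limit, and 9 of the 10 were placed inside a gene. JAK2 lost its call without replicate 2 or 3 (-0.57 and -0.52), HERPUD2 without any 1 replicate, and Peak 1171 without replicate 1 (-0.47).

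The low calls depended on the replicates and on the measure used. Without replicate 2 or replicate 3, 9 windows were called below, beside 1.36% and 0.91% of all elements. On the log2 ratios of the sums in each replicate, limma called 669 bone peaks above and 16 below. In the same fit, 52.2% of all elements were called above and 1.95% below. The mean count per observed barcode in place of the sum was also tested by limma, not edgeR. Of the 16 windows called below by edgeR, 1 was still called with this mean. The count of windows called above was 267 in place of 667, all 267 shared with the edgeR calls on sums. With this mean, 14.8% of all elements were called above, in place of 48.8%, and 0.46% below. The value of CD68 was then -0.51, and those of CALM2 and JAK2 were above 0, at 0.11 and 0.23.

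Other bone peaks were silent against the median scrambled control. 87 windows lay within 0.1 of the scrambled level on the log2 scale and were not called. The 10 of them with the smallest standard errors, of which 9 are shown, are the best measured, with SE 0.103 to 0.127. Peak 464 at chr17:36954677-36954877 had -0.07, 0.18 and 0.16 from 11690 DNA counts (fitted 0.04, SE 0.103). Peak 1069 at chr16:640311-640511 had -0.07, -0.07 and 0.05 from 9976 DNA counts (fitted -0.08, SE 0.106). The window inside MYL12A, a myosin regulatory light chain gene, had 0.23, 0.01 and -0.03 (fitted 0.02, SE 0.108). The replicates of these windows lay on both sides of 0, or close to it. Against the median of all elements instead, the 9 windows shown were all called below by edgeR, at -0.54 to -0.38. 7 of the 10 silent windows were at the barcode limit, each in DNA alone. The 165 bone peaks at the limit in DNA alone had a median of 0.62, and 42 of them (25.5%) were not called.

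A scrambled version of the same length was paired with 95 of the tested bone peaks. The native window was higher than its scrambled version in 38 pairs (40.0%) and lower in 13 (13.7%), where over all 457 pairs in the library 30.4% were higher and 9.19% lower. The median difference over the 95 pairs was 0.39 on the log2 scale (quartiles -0.15 and 0.76), beside 0.31 over all pairs, and 62 of 95 native windows were higher. Of the 31 pairs under the limit in both versions, 9 (29.0%) were called higher and 1 (3.23%) lower, with a median difference of 0.44. Over all 232 such pairs in the library, 22.8% were called higher and 3.45% lower, with a median difference of 0.38. Refitted on elements under the limit alone, 5 of the 31 bone pairs were called higher and 0 lower by edgeR. In that refit, 13 of the 31 were higher and 1 lower at an unadjusted p under 0.05. Shares over all pairs in that refit were not counted. The scrambled bone windows were themselves often above the median control: 59 of 96 were called above, with a median of 0.63, or 0.14 in the 39 under the limit. They had a median of 382 DNA barcodes, beside 170 in the scrambled variant sites, and the part of barcode number in this difference was not tested. Native and scrambled activity correlated with r = 0.41 over the 95 pairs and r = 0.32 over the 31, as a description.

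The largest gain over a scrambled version was in Peak 92 at chr19:14115612-14115812, inside RFX1, a transcription factor gene. Its native window had 1.59, 2.21 and 1.87 and its scrambled version -0.13, -0.16 and -0.21 (difference 2.06, SE 0.174, edgeR adjusted p = 3.09e-07). Peak 309 at chr19:52693140-52693340, near the start of PPP2R1A, had 2.87, 2.72 and 2.84 against 0.72, 0.95 and 0.79 (difference 1.99, SE 0.125, edgeR adjusted p = 2.12e-08). In both pairs, the 2 versions did not overlap in any replicate.

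A window inside PPP2CA, a phosphatase catalytic subunit gene, was among the 5 largest gains. That window, Peak 396, had 0.95, 1.28 and 0.17 against -1.29, -0.46 and -0.71 (difference 1.62, SE 0.345, edgeR adjusted p = 0.00179). Its scrambled version was below 0 in every replicate. The native window's own call above the scrambled variant sites was lost without replicate 2 (0.49, edgeR adjusted p = 0.0813). It was also lost against the median of all elements (0.30). The window between CPSF7, which encodes a factor of mRNA 3′ end processing, and SDHAF2 had 2.65, 2.61 and 2.63 against 1.26, 0.77 and 0.92 (difference 1.65, SE 0.129). Peak 1123 at chr14:23566301-23566501 had 0.94, 0.16 and 0.03 against -1.23, -1.22 and -1.75 (difference 1.77, SE 0.302). Its native window was not called against the scrambled variant sites (fitted 0.32, edgeR adjusted p = 0.201), so the gap came with a scrambled version far below 0.

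In 13 pairs, the scrambled version was the stronger. In Peak 863 at chr20:60962281-60962481, near the start of the ribosomal protein gene RPS21, the native window had 0.22, 0.13 and 0.13 and its scrambled version 2.32, 2.24 and 2.25 (difference -2.11, SE 0.115, edgeR adjusted p = 6.53e-09). In Peak 1002 near the start of EIF3J, a translation initiation factor gene, the native window had -0.01, -0.56 and -0.04 and the scrambled version 1.43, 1.12 and 1.45 (difference -1.54, SE 0.210). In the window inside CHKB, a choline kinase gene, the native values were 0.30, 0.16 and 0.57 and the scrambled ones 1.79, 1.90 and 1.82 (difference -1.49, SE 0.136). The scrambled version was higher in every replicate of these 3 pairs. Without any 1 of the replicates, 8 pairs were called lower. In 12 of the 13 pairs at least 1 version was at the barcode limit. The exception, Peak 927 at chr11:46635536-46635736, had 400 DNA counts, and its call (difference -1.27, edgeR adjusted p = 0.0480) was lost in 6 of the 8 other settings.

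**Figure D3:**
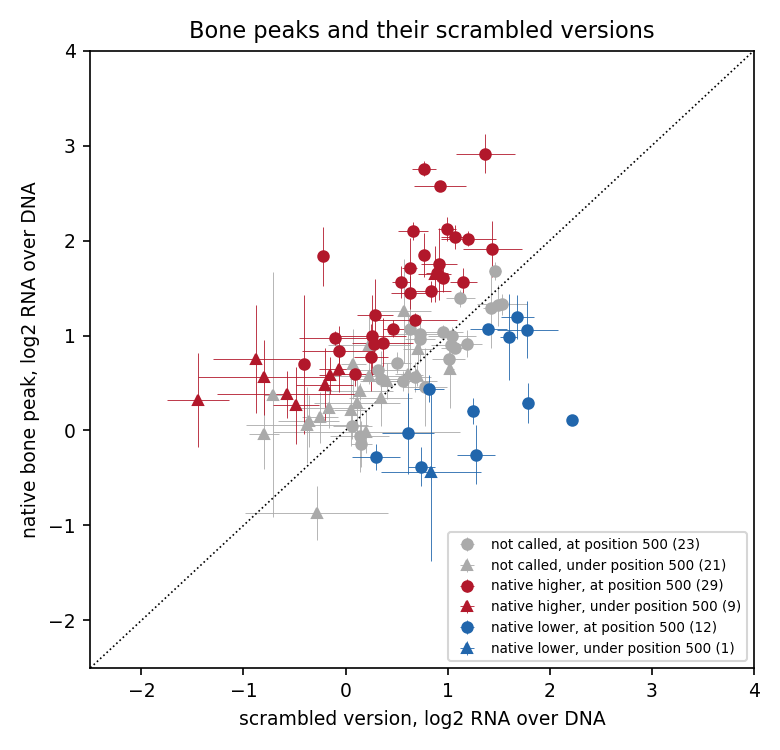
Log2 RNA over DNA of 95 native bone peaks (vertical axis) against their scrambled versions (horizontal axis), both with the median scrambled variant site at 0; bars are the SD of 3 replicates, colour gives the edgeR call, circles are pairs with a version at barcode position 500 and triangles pairs under it. The 38 pairs called higher lie above the dotted line of equal activity, and the 13 called lower lie below it.

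Bone peaks could also be set beside other windows that cover part of the same bases. No bone peak had the coordinates of another native element, but 49 shared at least 100 bp with a cartilage peak and 42 with a muscle peak, up to 197 bp. The median absolute difference was 0.35 to the cartilage windows and 0.21 to the muscle windows. It was smaller where more was shared: 0.22 over 27 cartilage windows and 0.15 over 18 muscle windows sharing 150 bp or more, against 0.63 over 22 and 0.29 over 24 sharing 100 to under 150 bp. The correlation of bone and cartilage windows was 0.81 in the first class and 0.42 in the second, and that of bone and muscle windows 0.85 and 0.56, as descriptions within the same libraries. In 8 cartilage and 4 muscle overlaps the 2 windows differed over 2-fold. With overlaps from 50 bp counted, the median difference to 69 muscle windows was 0.39, and 11 of them differed over 2-fold. In TC28a2, the 49 overlapping cartilage windows had a median of 0.64, with 33 called above, where 32.5% of all 7160 elements tested in that line and 678 of its 991 cartilage windows were called above; levels in the 2 lines are each set to their own scrambled controls.

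**Figure D4:**
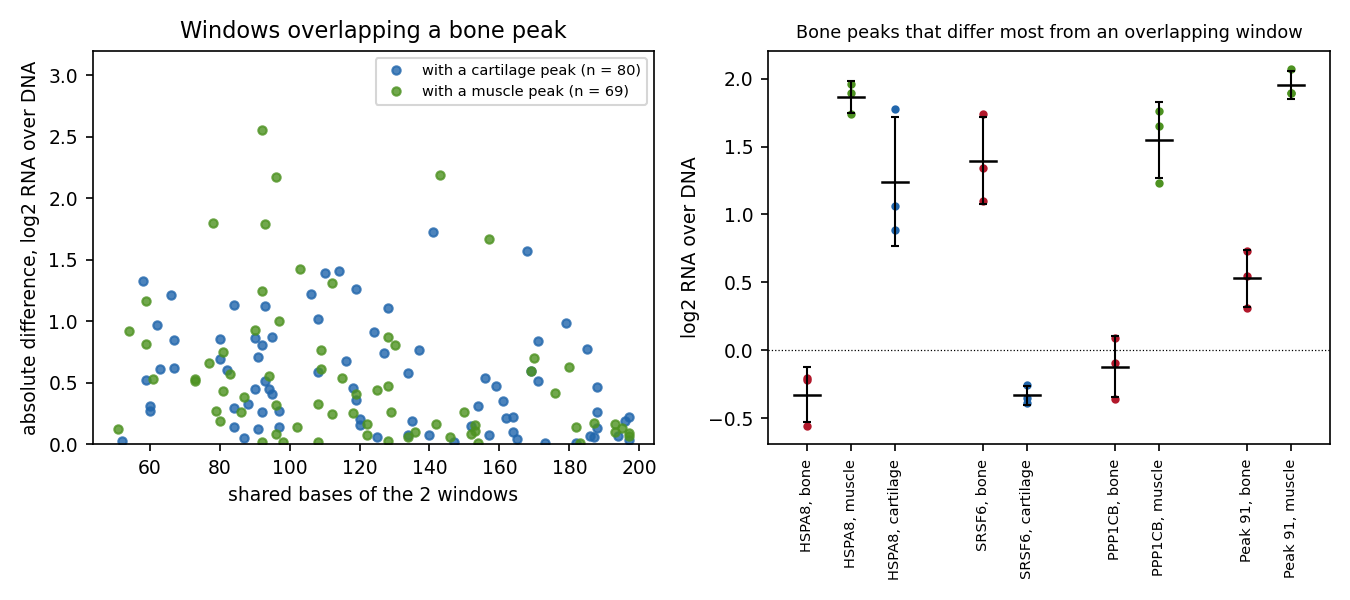
Left, absolute difference in log2 RNA over DNA (vertical axis) between a bone peak and the cartilage or muscle window that shares 50 or more bases with it (horizontal axis). Right, log2 RNA over DNA of the windows in the 5 largest differences among those sharing at least 100 bases (vertical axis), each named by a nearby gene or peak number and its class; points are 3 replicates, the wide bar the mean and the error bar the SD. The HSPA8 bone window sits below 0 while both windows that overlap it sit above.

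Among overlaps of 100 bp or more, the largest gap was at HSPA8, the gene of a constitutive heat shock chaperone. The bone window, Peak 82 at chr11:122933360-122933560, had -0.20, -0.22 and -0.56. A muscle window sharing 143 bp had 1.89, 1.96 and 1.74, and a cartilage window sharing 168 bp had 1.78, 1.06 and 0.88. The bone window was thus below both neighbours in every replicate. Its scrambled version had 0.95, 0.75 and 0.69 and was also higher than the native window (difference -1.12, SE 0.147, edgeR adjusted p = 2.76e-05). The bone window's own call below the median scrambled variant site (fitted -0.38, edgeR adjusted p = 0.0285) was lost without replicate 3 (-0.25). In TC28a2, the same cartilage window had a fitted activity of 0.25.

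The direction was the opposite at SRSF6, a splicing factor gene. The bone window, Peak 353 at chr20:42086537-42086737, had 1.74, 1.34 and 1.10, and the cartilage window sharing 141 bp had -0.26, -0.39 and -0.35. That cartilage window was also low in TC28a2, at -0.73. At PPP1CB, a protein phosphatase 1 catalytic subunit gene, the bone window had 0.09, -0.10 and -0.36 and a muscle window sharing 157 bp had 1.76, 1.65 and 1.23. In both places the replicates of the 2 windows did not overlap. At Peak 91 on chromosome 8, the bone window (0.48) was below a muscle window sharing 103 bp (1.90).

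Other overlapping windows were nearly equal. At TRIM27, a ubiquitin ligase gene, the bone window had a fitted activity of 0.78 and a cartilage window sharing 173 bp had 0.79. At SRSF5, another splicing factor gene, the values were 0.60 and 0.59 with 182 bp shared. At RNF187 the bone and muscle windows had 1.10 and 1.11, at Peak 261 on chromosome 1 they had 1.61 and 1.63, and at IQGAP1, a scaffold protein gene, 0.47 and 0.48. These were the 5 smallest differences among overlaps of 100 bp or more.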

How the data were processed

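Barcode counts per element in the DNA and RNA libraries were deposited by the authors as tables with a column for each barcode position, ending at position 500; the aligner, the assignment of barcodes and any filter are not given in the sources used here. Per the submitters' processing notes, the build is hg19. Counts were summed over positions for each element and library. Elements listed again with the same counts were used once. Elements with at least 10 DNA barcodes in each of 3 replicates entered 1 fit in edgeR 4.0.16 (R 4.3.3; TMM scaling, quasi-likelihood test of RNA against DNA, replicate block, two-sided), tested at an adjusted p of 0.05 against the median scrambled variant site, taken as a fixed level. Native and scrambled versions were compared by the interaction of version with RNA against DNA. Each SE is the size of the log2 estimate over the square root of the F of its quasi-likelihood test. For activity, it came from the fit before or after centring on the controls, whichever had the larger log2 size. The block was kept because DNA and RNA were isolated together, per the labels; same-numbered DNA and RNA libraries did not deviate together (r = 0.02, 0.00 and -0.00 over 9681 elements). Intervals and errors cover the spread between libraries, not PCR duplication. limma 3.58.1 (pseudocount 1) and DESeq2 1.42.0 were alternatives. The mean count per observed barcode was tested by limma, without TMM scaling. The scripts were tested on simulated counts.

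Bone peaks were named by rule: the 10 highest called above, the 10 highest under position 500, the 10 lowest called below, the 10 uncalled with the smallest SE and a log2 under 0.1 in size, the 5 highest and 5 lowest called pairs, the 5 largest and 5 smallest differences among overlaps of 100 bp, and windows at listed genes. 1 of the uncalled windows is not reported here. Members and lists were chosen with earlier results of these data known.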

Additional observations from a re-analysis of the deposited data

How the results depend on the processing

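The calls depended most on how barcodes enter a window's value. Mean count per barcode, tested by limma, gave 267 bone peaks above and 1 below, with a median of 0.25. The median of all elements as reference gave 431, 101 and 0.27. Elements under position 500 alone gave 245, 10 and 0.44, and those under position 490, chosen after seeing the data, 200, 10 and 0.41. Of all elements tested, 14.8% were called above with mean count per barcode and 23.9% against the median of all elements. Under position 500 and under position 490, 35.0% and 32.8% of all elements were called above. The shares of all elements called below were, in the same order, 0.46%, 10.9%, 1.57% and 1.49%. The median of bone peaks was 0.79 without the highest count of each element and library. Leaving out 1 replicate gave 626 to 631 bone peaks above and 9 to 14 below. In these fits, 43.5% to 44.0% of all elements were called above and 0.91% to 1.64% below. Native windows were higher in 29 to 33 pairs and lower in 8 in each case. Under position 500 alone, 5 pairs were higher and 0 lower by edgeR, with 13 higher and 1 lower at an unadjusted p under 0.05. Values changed sign for CALM2 (0.11), JAK2 (0.23) and CHKB (-0.25) with mean count per barcode, and for CHKB (-0.17) against the median of all elements. Without the replicate block, 666 bone peaks were above and 19 below, beside 49.7% and 2.16% of all elements. In that setting, 39 pairs were higher and 12 lower. Of the named results, only the pair of Peak 927 lost its call. The causes were not tested. DESeq2, limma, the other barcode minimums and the other sets of scrambled controls kept the counts of calls within 1.5 times. Overlaps of 50 bp or more numbered 80 with cartilage and 69 with muscle windows, 12 and 11 of them over 2-fold apart, with median absolute differences of 0.45 and 0.39. Identical coordinates gave no overlap to compare. Few barcodes limit the windows with large SE, and the position limit those at 500.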
